A study of Mus musculus with 4 samples.

Results

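Car3 and 9 genes known from fat cells were followed on 4 arrays of mouse bronchial epithelial cells. The 10 genes, of 28625 genes on the array, are Car3, Cfd, Adipoq, Retn, Lep, Plin1, Plin4, Cidec, Ucp1 and Thrsp, and every probe that carries one of these names in the scanner files was used. Car3 was chosen by its low signal after challenge on these same arrays, so its challenge differences below are a description and support nothing. The other 9 were named as markers of adipose tissue, to set the Car3 signal beside theirs.

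Fat cells store triglyceride in a lipid droplet whose surface is coated by perilipins, and they secrete hormones such as adiponectin and leptin. Car3 encodes carbonic anhydrase 3, a cytosolic enzyme of low hydratase activity that is abundant in adipose tissue, slow skeletal muscle and liver. Pieces of mediastinal fat lie along the airways, so adipocyte transcripts in a lung preparation can come from fat carried along with the dissected tissue. In a bulk sample of this kind, fewer cells of a type and less RNA per cell cannot be told apart.

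The cells came from lungs in an ovalbumin (OVA) model of allergic asthma, and each group was measured on 1 single-colour array, with RNA pooled from 4 samples. The groups were challenged cells labelled Pla2g3-/-, challenged wild-type (Pla2g3+/+) cells, control cells labelled Pla2g3-/- and control wild-type cells, where Pla2g3 encodes group III secreted phospholipase A2. Per the labels, OVA (10 µg) with alum (1.3 mg) was injected on days 0 and 14, the mice breathed an aerosol of 1% OVA on days 26, 27 and 28 (30 min each), and cells were prepared from lungs taken 3 h after challenge. The labels do not say what control mice received, so challenge can include sensitisation here, and they give no age, strain, deleted exon or hour of collection. With 1 array per group no difference has a replicate check and no test is given; each is a log2 difference with the scanner's own error in log2 units. At least 2-fold (1 on the log2 scale) is used as a mark of size only.

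The share of probes well above background was 78.7% to 81.5% per array, and all 14 airway epithelium markers were so on all 4 arrays, with median challenge differences of 0.00 in cells labelled Pla2g3-/- and 0.04 in wild type. Both Pla2g3 probes were brighter on the arrays labelled Pla2g3-/-. One read 4154 intensity units in challenged cells labelled Pla2g3-/- against 254.0 in challenged wild type, and 2023 in control cells labelled Pla2g3-/- against 239.5 in control wild type. The other read 336.3 against 13.1 and 177.4 against 44.1 in the same pairs. The signal goes against the labels; the place of these probes relative to the deletion is not stated in the labels, and genotype is written below as labelled.

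The 10 genes were read by 12 probes of 60 bases, placed on the mm9 build by the scanner files. The Car3 probe lies on chromosome 3 (chr3:14871781-14871840, plus strand), and the Cfd probe on chromosome 10 (chr10:79355302-79355361, plus strand). The Adipoq probe lies at chr16:23157576-23157635 (plus strand). Cidec and Retn have 2 probes each, which did not read alike, and their sequences are shown with those of Car3, Cfd and Adipoq because the results turn on them. The Cidec probes lie at chr6:113374630-113374689 and chr6:113378116-113378175 (minus strand), and the Retn probes at chr8:3657312-3657371 and chr8:3659757-3659816 (plus strand). Sequences are given 5′ to 3′ as in the scanner files, whole or as the first 30 bases; the exon or untranslated region behind each probe was not looked up, since no mm9 annotation was used here.
Car3, first 30 bases: acatgcaaccgcagtgccttttgacatgat
Cfd, first 30 bases: aacatcacaaatggtaacatgacatcctga
Adipoq, 60 bases: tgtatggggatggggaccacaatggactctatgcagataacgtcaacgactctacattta
Cidec, first 30 bases of the brighter probe: tttttccacgaatgagtgaatggtattaga
Cidec, 60 bases of the dimmer probe: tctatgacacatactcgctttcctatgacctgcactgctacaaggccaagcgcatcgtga
Retn, 60 bases of the brighter probe: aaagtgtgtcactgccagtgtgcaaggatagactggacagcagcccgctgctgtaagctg
Retn, first 30 bases of the dimmer probe: actcacgtgcgcgaatccacacacaagcac

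Car3 gave 63.6 intensity units in challenged cells labelled Pla2g3-/- and 56.7 in challenged wild type, against 206.4 in control cells labelled Pla2g3-/- and 184.2 in control wild type. Both challenged arrays lay below both control arrays, and the genotypes lay close together within each treatment. After scaling each array to its 75th percentile, the challenge difference was -1.81 ± 0.22 in cells labelled Pla2g3-/- (3.50-fold lower) and -1.57 ± 0.21 in wild type (2.96-fold lower). The difference between these 2 challenge effects was -0.24 ± 0.30, within its scanner error. The genotype difference was 0.04 ± 0.22 with challenge, also within its error, and 0.28 ± 0.21 without challenge. Of 23284 genes with a value in both genotypes, 84 (0.361%) were at least 2-fold lower in both, a share from which nothing is read because the same contrast chose Car3. With normexp background correction, which adds an offset of 50 and compresses dim probes, the challenge difference of Car3 was -1.17 in cells labelled Pla2g3-/- and -0.92 in wild type.

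**Figure D1:**
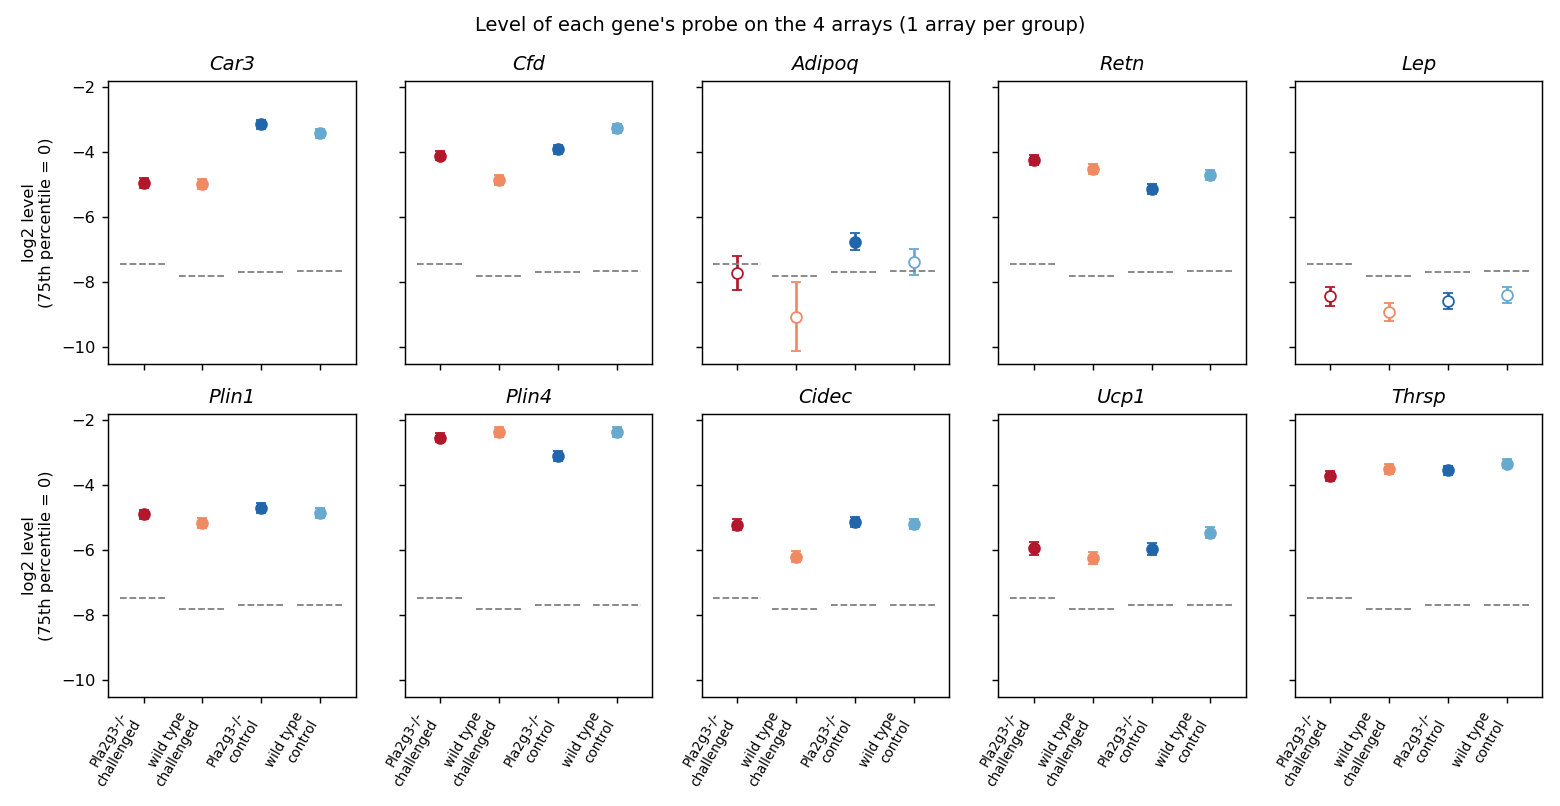
Level of the probe used for each of the 10 genes on the 4 arrays, as log2 processed signal minus the array's 75th percentile, with the scanner error as bars. Open circles are not well above background, and dashed lines give the lowest signal well above background on that array. Car3 is lower on both challenged arrays than on both control arrays, Adipoq and Lep lie near the dashed lines, and Cfd is lowest on the challenged wild-type array.

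Among the secreted products, Cfd (complement factor D, or adipsin, a serine protease of the alternative complement pathway) was the member with the lowest challenge difference in wild type. It gave 114.3 intensity units in challenged cells labelled Pla2g3-/- and 61.9 in challenged wild type, against 120.7 in control cells labelled Pla2g3-/- and 205.1 in control wild type. The challenged wild-type array was the lowest and the control wild-type array the highest, with both arrays labelled Pla2g3-/- between them. The challenge difference was -0.19 ± 0.21 in cells labelled Pla2g3-/-, within its error, and -1.59 ± 0.21 in wild type (3.02-fold lower). The difference between the 2 effects was 1.41 ± 0.29 (0.85 with normexp, where the wild-type effect was -1.02). The genotype difference of Cfd was 0.75 ± 0.21 with challenge and -0.65 ± 0.21 without.

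Adipoq, which encodes adiponectin, a hormone made almost only by fat cells, gave 9.30 intensity units in challenged cells labelled Pla2g3-/- and 3.35 in challenged wild type, against 16.9 in control cells labelled Pla2g3-/- and 11.8 in control wild type. It was well above background on the array of control cells labelled Pla2g3-/- alone. Its challenge difference is therefore a bound in cells labelled Pla2g3-/- (1.63-fold lower, or -0.70 ± 0.60 on the log2 scale), and none can be given in wild type. That bound is little larger than its scanner error, and with normexp it was -0.20. In the genotype comparison without challenge Adipoq had a bound of 1.55-fold higher in cells labelled Pla2g3-/- (0.63 ± 0.48), which moved to 0.13 on the log2 scale with normexp.

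Lep, which encodes the satiety hormone leptin, is printed as 10 spots and was well above background on no array. Its mean was 6.24 intensity units in challenged cells labelled Pla2g3-/- and 3.83 in challenged wild type, against 5.26 in control cells labelled Pla2g3-/- and 6.59 in control wild type. Of its spots, 1 was above background on the control wild-type array and 0 on each of the other 3 arrays, so no difference is given.

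Retn encodes resistin, a peptide that mouse fat cells secrete. Its brighter probe gave 103.6 intensity units in challenged cells labelled Pla2g3-/- and 78.0 in challenged wild type, against 51.7 in control cells labelled Pla2g3-/- and 76.0 in control wild type. The challenged arrays lay above the control arrays, by 0.89 ± 0.21 in cells labelled Pla2g3-/- and by 0.17 ± 0.21 in wild type, the opposite direction to Car3. The dimmer probe gave 69.9 and 70.5 units in challenged cells labelled Pla2g3-/- and challenged wild type, against 54.6 and 51.3 units in the 2 control groups in the same order. Its challenge differences were 0.25 ± 0.22 in cells labelled Pla2g3-/- and 0.60 ± 0.22 in wild type, so the probes differ on which genotype shows the larger one.

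Among the lipid droplet proteins, Plin1 (perilipin 1, which coats the droplet and holds back its lipases) gave 65.9 intensity units in challenged cells labelled Pla2g3-/- and 50.7 in challenged wild type, against 70.7 in control cells labelled Pla2g3-/- and 68.4 in control wild type. Both challenged arrays lay below both control arrays, by little: -0.21 ± 0.21 in cells labelled Pla2g3-/- and -0.30 ± 0.21 in wild type. Plin4, a perilipin of nascent droplets, gave 340.6 units in challenged cells labelled Pla2g3-/- and 349.7 in challenged wild type, against 212.3 in control cells labelled Pla2g3-/- and 386.6 in control wild type. The control array labelled Pla2g3-/- was the lowest and the other 3 lay together, so the challenge difference was 0.57 ± 0.20 in cells labelled Pla2g3-/- and -0.01 ± 0.20 in wild type.

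Cidec, whose product enlarges droplets by fusing them, gave 53.2 intensity units in challenged cells labelled Pla2g3-/- and 24.6 in challenged wild type on its brighter probe, against 52.0 in control cells labelled Pla2g3-/- and 53.7 in control wild type. The challenged wild-type array stood below the other 3, which nearly coincided. The challenge difference was -0.08 ± 0.22 in cells labelled Pla2g3-/- and -0.99 ± 0.24 in wild type, just short of 2-fold. On the dimmer Cidec probe these were -0.10 ± 0.28 and -0.39 ± 0.24 in the same order, and the control wild-type array was the highest at 46.0 units, with 32.2, 32.0 and 31.9 on the others. With normexp the wild-type difference of the brighter probe was -0.27.

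Ucp1, the uncoupling protein by which brown fat makes heat, gave 32.0 intensity units in challenged cells labelled Pla2g3-/- and 23.8 in challenged wild type, against 29.5 in control cells labelled Pla2g3-/- and 44.8 in control wild type. Its challenge difference was 0.01 ± 0.27 in cells labelled Pla2g3-/- and -0.78 ± 0.26 in wild type (-0.21 with normexp). Thrsp, a small nuclear protein that promotes fatty acid synthesis in fat and liver, gave 149.4 and 158.9 units in challenged cells labelled Pla2g3-/- and challenged wild type, against 157.2 and 196.0 units in the 2 control groups in the same order. Its challenge differences, -0.18 ± 0.21 in cells labelled Pla2g3-/- and -0.17 ± 0.21 in wild type, were within scanner error.

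Of the 10 genes, 8 were well above background on all 4 arrays, the exceptions being Adipoq and Lep. In 4 of them (Car3, Cfd, Plin1 and Cidec) both challenged arrays lay below both control arrays, as they did for 26.4% of the 22211 genes above background on all arrays. Retn alone had both challenged arrays above, a pattern of 18.5% of genes. The margin between the closest challenged and control arrays was within scanner error for Cfd (-0.19 ± 0.21), Plin1 (-0.05 ± 0.21), Cidec (-0.01 ± 0.22) and Retn (0.17 ± 0.21). It was -1.53 ± 0.22 for Car3, which was chosen for this pattern. On the dimmer Cidec probe the arrays overlapped.

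The challenge differences of the other members can be set beside that of Car3 only where they were measured: Adipoq has a bound in cells labelled Pla2g3-/- and no value in wild type, and Lep has no value. In cells labelled Pla2g3-/- 8 of the 9 had a value, their median challenge difference was -0.13 (-0.08 over the 7 measured on both arrays), and 0 were at least 2-fold lower or higher, against 3.42% lower and 3.86% higher of all genes (4.76% and 4.05% of the 7014 genes in the members' range of levels). In wild type 7 of the 9 had a value, their median was -0.30, and 1 (Cfd) was at least 2-fold lower and 0 higher, against 1.68% and 1.81% of all genes (1.7% and 1.74% in that range). The medians over all genes were -0.06 in cells labelled Pla2g3-/- and -0.03 in wild type. The Car3 difference minus that of each of the 7 measured members was negative in cells labelled Pla2g3-/-, between -2.70 ± 0.30 (Retn) and -1.60 ± 0.30 (Plin1) on the log2 scale. In wild type it was 0.03 ± 0.30 against Cfd, -0.57 ± 0.32 against Cidec and -0.79 ± 0.33 against Ucp1. Against Plin1, Thrsp, Plin4 and Retn it lay between -1.74 ± 0.30 and -1.27 ± 0.30.

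**Figure D2:**
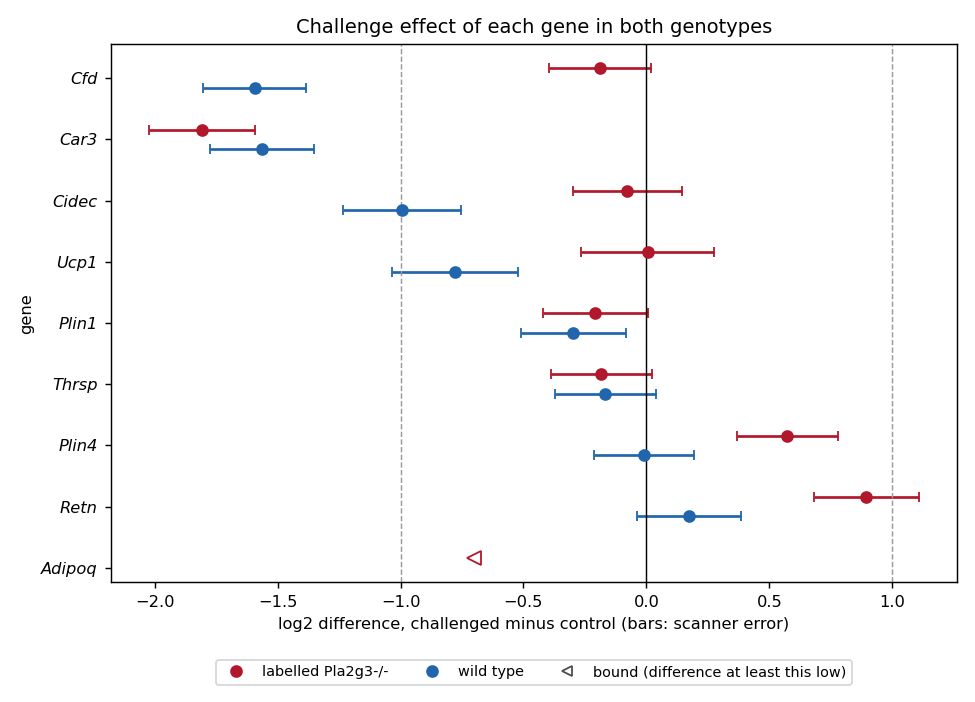
Challenge difference (challenged minus control, log2) of the genes with a value, in cells labelled Pla2g3-/- (red) and wild type (blue), with scanner errors as bars and the Adipoq bound as an open triangle; dashed lines mark 2-fold. Car3 is past the lower line in both genotypes and Cfd in wild type only.

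The 2 challenge effects differed by more than the scanner error in 5 of the 7 other members with a value, beside 33.9% of all genes. The difference between them, cells labelled Pla2g3-/- minus wild type, had a median of 0.72 over those 7 and was positive in 6 of them, against a median of -0.03 and 45.4% positive over all genes. It was at least 2-fold in 1 (Cfd), beside 2.81% of all genes, and at least 2-fold lower in 0, beside 2.71%. The values were 0.92 ± 0.33 for the brighter Cidec probe (0.29 ± 0.37 for the dimmer), 0.78 ± 0.37 for Ucp1, 0.72 ± 0.30 for the brighter Retn probe (-0.35 ± 0.31 for the dimmer) and 0.58 ± 0.29 for Plin4. Plin1 (0.09 ± 0.30) and Thrsp (-0.02 ± 0.29) were within error, and Car3 had the opposite sign. With normexp the median was 0.20, the difference was positive in 5 of the 7, and it was past the same errors in 3, with Cidec (0.20) and Ucp1 (0.15) within them. The genotype comparisons share these arrays. Their medians over the other members were 0.28 with challenge (7 with a value) and -0.32 without (8 with a value). The median without challenge was -0.44 over the 7 measured on both arrays, leaving out the Adipoq bound. In neither comparison was a member at least 2-fold different. Of all genes, 3.84% were higher and 2.48% lower by 2-fold with challenge, and 3.19% and 1.78% without.

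A wider list of 39 adipocyte genes beyond the 10, of which 38 had a value, had a median challenge difference of -0.07 in both genotypes. In cells labelled Pla2g3-/- 0 of the 38 had a measured difference or a bound of at least 2-fold, beside 3.42% lower and 3.86% higher of all genes. In wild type 3 were lower and 1 higher, beside 1.68% and 1.81% of all genes; with normexp these counts were 0 and 0, and over genes above background on all 4 arrays they were 2 and 0. Aoc3, a vascular amine oxidase abundant on fat cells, gave 44.3 intensity units in challenged cells labelled Pla2g3-/- and 48.0 in challenged wild type, against 74.6 in control cells labelled Pla2g3-/- and 119.2 in control wild type. It was low on both challenged arrays, with differences of -0.86 in cells labelled Pla2g3-/- and -1.17 in wild type. Pck1, the enzyme of glyceride synthesis from pyruvate, was well above background on both control arrays (19.0 and 17.9 units) and on neither challenged array (5.39 and 5.18 units). It was at least 0.88 lower on the log2 scale in cells labelled Pla2g3-/- and at least 1.03 lower in wild type. Npr3, the natriuretic peptide clearance receptor, was 0.29 in cells labelled Pla2g3-/- and -1.03 in wild type, and Acvr1c, an activin receptor, was higher in wild type, at least 1.38.

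Other fat-cell transcripts of that list, short of 2-fold, had mixed profiles. Adrb3 (-0.72 in cells labelled Pla2g3-/- and -0.66 in wild type) and Slc36a2 (-0.67 and -0.83) were lower after challenge in both genotypes. Rarres2 (0.79 and 0.29) and Lpl (0.69 and 0.31) were higher in both. Fabp4, the fatty acid carrier of fat cells, gave 889.0 units in challenged cells labelled Pla2g3-/- and 460.6 in challenged wild type, against 546.3 in control cells labelled Pla2g3-/- and 529.6 in control wild type, with differences of 0.59 and -0.07. Pparg, the master regulator of fat-cell formation, had differences of -0.56 in cells labelled Pla2g3-/- and -0.03 in wild type. Airway and macrophage cells express both genes too, so the list is not specific to fat. Over the whole list the summed intensity was 235116 and 237255 units in challenged cells labelled Pla2g3-/- and challenged wild type, against 232361 and 261518 units in the 2 control groups in the same order. The brightest genes carry this sum: Mgst1 gave 61414 to 78960 units and Acsl1 43701 to 58566 across the arrays. Dim genes such as Aoc3 hardly enter it. Tshr was above background on no array.

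Brown fat genes beyond Ucp1 had medians of -0.16 in cells labelled Pla2g3-/- and -0.09 in wild type over 22 of 25 genes, and Elovl3, Lhx8 and Fgf21 were above background on no array. Cox8b, a cytochrome oxidase subunit of brown fat and muscle, was low on both challenged arrays, at -0.91 in cells labelled Pla2g3-/- and -1.26 in wild type. Gyk, glycerol kinase, was high on both, at 1.90 in cells labelled Pla2g3-/- and 1.57 in wild type. The 18 genes of fatty acid and triglyceride synthesis, the pathway Thrsp promotes, had medians of 0.00 in cells labelled Pla2g3-/- and 0.04 in wild type. In that list Scd2, a desaturase, was -1.03 and Mogat2, an acyltransferase, at least 1.69 in cells labelled Pla2g3-/-. The 5 perilipin and Cide genes outside the 10 (Plin2, Plin3, Plin5, Cidea and Cideb) had medians of 0.00 in cells labelled Pla2g3-/- and 0.07 in wild type, with none at 2-fold. Over all genes the 2-fold shares were 3.42% lower and 3.86% higher in cells labelled Pla2g3-/-, and 1.68% and 1.81% in wild type. None among 5 genes therefore says little.

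The carbonic anhydrase family holds cytosolic, mitochondrial, membrane and secreted enzymes, and related proteins without catalytic activity (Car8, Car10 and Car11). Of 15 genes besides Car3, Car5a and Car10 were above background on no array. The other 13 had a median challenge difference of -0.01 in cells labelled Pla2g3-/- and -0.09 in wild type. In wild type the secreted Car6 was the 1 past 2-fold, beside 1.68% lower and 1.81% higher of all genes. In cells labelled Pla2g3-/- 0 were, beside 3.42% and 3.86%. Car6 gave 38.4 units in challenged cells labelled Pla2g3-/- and 9.42 in challenged wild type. The controls gave 25.2 units in cells labelled Pla2g3-/- and 30.9 in wild type. Its differences were 0.50 in cells labelled Pla2g3-/- and -1.58 in wild type. The 9.42 units lie near the lowest signal above background on that array, 7.98 units. With normexp 0 genes of the list were at least 2-fold lower in wild type. Car2, the widespread cytosolic enzyme, was -0.58 in cells labelled Pla2g3-/- and -0.21 in wild type, and its cytosolic relative Car13 was -0.39 and -0.09. The mitochondrial Car5b was 0.16 in both, and the membrane enzyme Car4 was 0.03 and -0.07, in the same order. Car1, Car7, Car8, Car9, Car11, Car12, Car14 and Car15 lay between -0.42 (Car9) and 0.16 (Car14) in cells labelled Pla2g3-/- and between -0.45 (Car15) and 0.27 (Car8) in wild type.

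**Figure D3:**
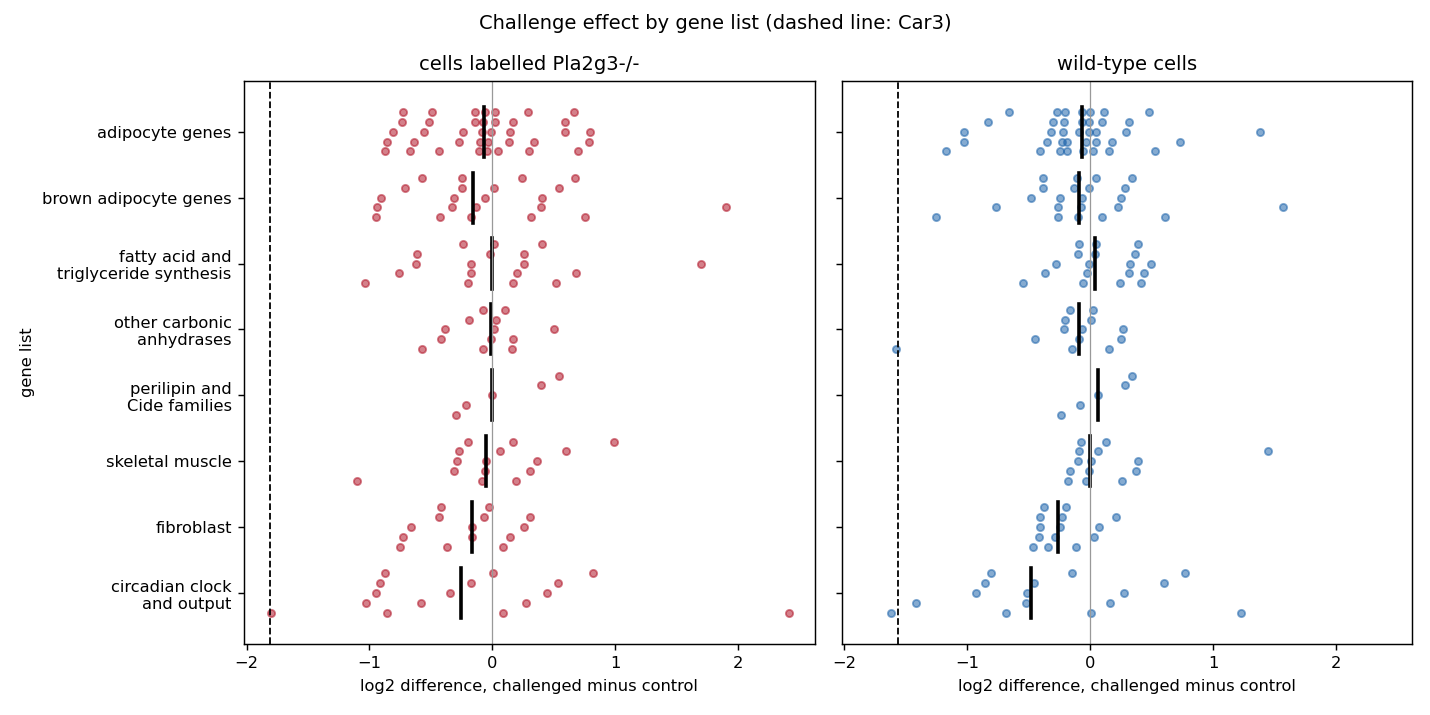
Challenge difference of each gene in 8 lists, in cells labelled Pla2g3-/- (left) and wild type (right); dots are genes, bars are list medians, and the dashed line is Car3. The medians of the adipocyte and carbonic anhydrase lists lie near 0, while the dashed line lies at -1.81 and -1.57.

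Slow skeletal muscle and liver are the other tissues named above as rich in Car3. The muscle list is mostly of fast-fibre genes and holds no slow-fibre myosin. Of its 20 genes, 5 (Myh2, Myh4, Actn3, Casq1 and Ckmt2) were above background on no array, and the list's median challenge difference was -0.05 in cells labelled Pla2g3-/- (15 with a value) and 0.00 in wild type (14 with a value). Mylpf was -1.10 in cells labelled Pla2g3-/- and Myot 1.45 in wild type. For liver, hepatocyte genes had medians of -0.04 in cells labelled Pla2g3-/- (10 with a value) and -0.32 in wild type (9 with a value), with Apoa1 and Ttr of the 12 above background on no array. Serpina1a, an antitrypsin, was -0.82 in cells labelled Pla2g3-/- and -1.03 in wild type, the apolipoprotein Apoa2 was -0.56 in both, and Ahsg was 1.15 and -0.08. Connective tissue fibroblast genes had medians of -0.17 and -0.26 in the same order, with 0 of 14 at 2-fold in either. Of all genes, 3.42% were lower and 3.86% higher by 2-fold in cells labelled Pla2g3-/-, and 1.68% and 1.81% in wild type. The medians in cells labelled Pla2g3-/- and in wild type, in that order, were 0.22 and 0.13 for heart muscle, -0.04 and 0.11 for mesothelium, 0.74 and -0.07 for endothelium, 0.41 and 0.03 for alveolar macrophages, and 0.04 and 0.17 for alveolar type 2 cells.

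Markers of tissues near the airway moved with the groups too, and their part in the Car3 and Cfd values was not tested. The 12 developing T cell genes were all above background on every array. They summed to 12997 and 8272 intensity units in challenged cells labelled Pla2g3-/- and challenged wild type, against 82901 and 11405 units in the 2 control groups in the same order. In cells labelled Pla2g3-/- 11 of the 12 were at least 2-fold lower after challenge (median -3.41), beside 3.42% of all genes. In wild type 1 was (median -0.58), beside 1.68%. The 10 parathyroid and thyroid genes summed to 6374 and 3337 units in challenged cells labelled Pla2g3-/- and challenged wild type, against 6310 and 10304 units in the control groups in the same order. Of these 10, 9 were above background on all arrays and 0 on none. By median log2 level the list read -4.26 and -5.23 on the challenged arrays, against -4.53 and -4.31 on the control arrays, in the same order of genotypes.

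Over the 4 arrays, the gene whose profile lay closest to that of Car3 was Dbp, among 15551 genes with a symbol that were above background on all arrays. Likeness was the root mean square distance between log2 levels, each centred on the gene's own mean over the 4 arrays, and only 4 points enter it. Dbp, a transcription factor that is a rhythmic output of the circadian clock, lay at a distance of 0.05. It gave 13654 intensity units in challenged cells labelled Pla2g3-/- and 12716 in challenged wild type, against 44220 in control cells labelled Pla2g3-/- and 37260 in control wild type. Its challenge differences were -1.80 in cells labelled Pla2g3-/- and -1.42 in wild type, beside -1.81 and -1.57 for Car3. The Dbp rank depends on how dim probes are treated: with normexp, Dbp was rank 248.

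The next 7 genes were Dact2, Gpr155, Spaca1, Gpr174, Klf11, Eif4e1b and Grap, at distances between 0.16 and 0.27. On the challenged arrays Spaca1, Eif4e1b and Gpr174 were dim, at 16.1 to 23.7 intensity units. Dact2, Klf11, Gpr155 and Grap gave 32.8 to 227.4 units there. Ranks of these 7 with normexp were not computed. The challenge differences of these 7 lay between -2.01 and -1.18 in cells labelled Pla2g3-/- and between -2.10 and -1.18 in wild type. As they were picked for closeness to Car3, their low signal after challenge follows from that choice. By the same measure Cfd came closest among the other adipocyte genes, at rank 414 of 15551 (distance 0.58, within the nearest 2.66%). Cidec followed at rank 1209, Ucp1 at 1891, Plin1 at 2143 and Thrsp at 4234 (the nearest 27.2%), while Plin4 and Retn were at 14186 and 14728. With normexp, Cfd was at rank 733, Cidec at 3062 and Ucp1 at 3943. The median profile of those 7 genes was closest to Csrnp3, Star, Il17rd, Col23a1 and Errfi1 (distances 0.02 to 0.03), whose challenge differences lay between -0.02 and 0.06 in cells labelled Pla2g3-/- and between -0.54 and -0.41 in wild type.

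**Figure D4:**
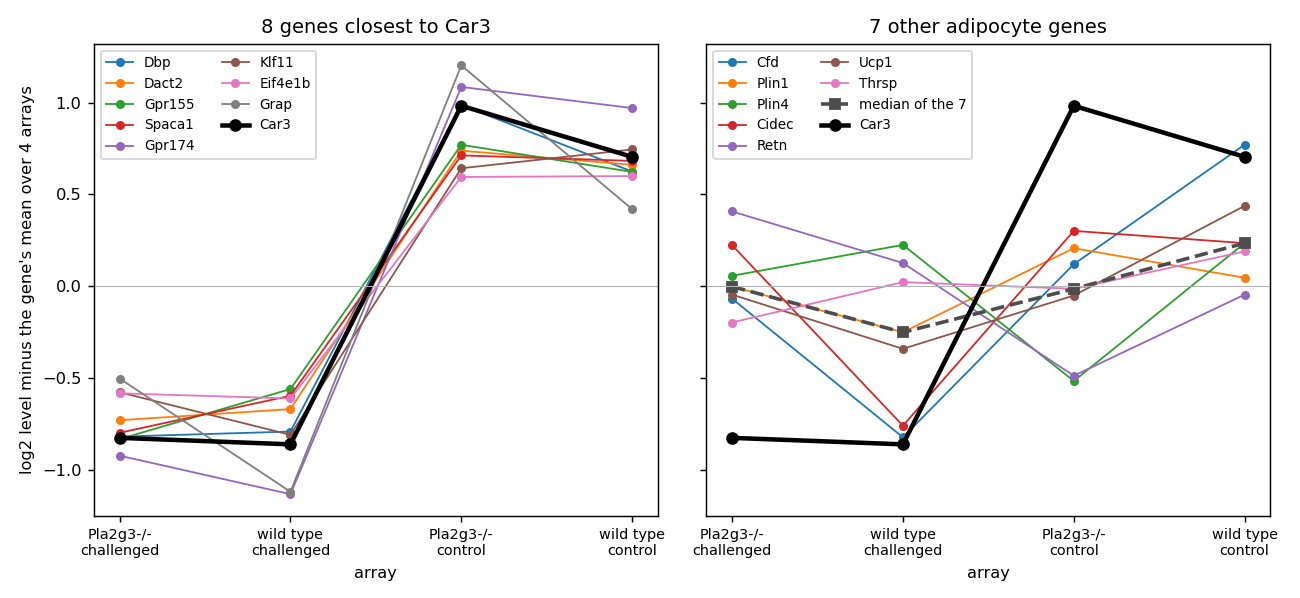
Log2 level minus the gene's mean over the 4 arrays for Car3 (black) with the 8 genes closest to it (left) and with the 7 other adipocyte genes above background on all arrays (right; dashed, their median). The 8 genes were picked for closeness to Car3, so being low on both challenged arrays follows from that choice. The 7 adipocyte genes were not picked by distance and follow several patterns.

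The clock list that holds Dbp, 16 genes all above background, had medians of -0.26 in cells labelled Pla2g3-/- and -0.48 in wild type. These medians pool opposite shifts. Dbp, Tef, Hlf, Nr1d1, Nr1d2, Per1, Per2, Per3 and Ciart were lower after challenge in both genotypes. Cry1, Arntl, Npas2, Nfil3 and Bhlhe40 were higher in both. Per2 in cells labelled Pla2g3-/- and Bhlhe40 in wild type moved by less than the scanner error. Clock was near 0, and Bhlhe41 differed in sign between the genotypes. Hlf, a relative of Dbp, was -1.03 in cells labelled Pla2g3-/- and -0.51 in wild type, and Ciart, a repressor in the clock, was -0.58 and -1.63 in the same order. Nfil3, a repressor that binds the same sites as Dbp, was higher by 2.41 in cells labelled Pla2g3-/- and by 1.23 in wild type. The hour at which lungs were taken is not given, so a difference in hour between the groups cannot be told apart from challenge.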

How the data were processed

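The scanner files deposited by the authors hold spot intensity values; Agilent Feature Extraction was run in version 11.5.1.1, as the submitters' processing notes give it, with the background already subtracted in the processed signal. The series matrix, also deposited by the authors, holds intensity values that equalled the processed signal divided by each array's 75th percentile, on 44397 features; its column medians were 0.0850 (challenged, labelled Pla2g3-/-), 0.0860 (challenged wild type), 0.0879 (control, labelled Pla2g3-/-) and 0.0875 (control wild type). The labelling reactions used 200 ng of RNA with Cy3.

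From these, log2 processed signal minus the 75th percentile over non-control spots was taken. Spots marked as outliers (128 to 155 per array) were dropped, repeat spots of a probe were averaged, and saturation did not occur. A probe counted as above background where at least 50% of its spots did. The brightest probe stood for a gene. A probe above background on 1 of 2 arrays gives a bound: the bright value against the higher of the dim value and the lowest signal above background on that array. Errors are the scanner's, added in quadrature; the number of arrays limits the precision. In the members' range of levels, probes printed 10 times had a median SD between spots of 0.10 to 0.11. The 4 arrays share 1 slide, and the group cannot be told apart from the position on it.

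The members and the 17 gene lists were chosen with earlier results of these data known. The genes named are all members, list genes at least 2-fold different after challenge (at most 5 per list), the carbonic anhydrases above background, and the 8 and 5 closest profiles. Some genes were named outside that rule after their values were seen. They are Fabp4, Pparg, Adrb3, Slc36a2, Rarres2, Lpl, Mgst1, Acsl1, Tshr and Apoa2, and Apoa1, Ttr and other genes not above background. The clock genes other than Dbp, Hlf, Ciart and Nfil3 were also named outside it. The 8 alternatives were normexp correction, quantile normalization, 2 other scalings, the mean of a gene's probes, genes above background on all arrays, outlier spots kept, and the matrix values; ranks of Dbp and the members were added after seeing the data. The computation of differences was tested on simulated data. R 4.3.3, limma 3.58.1, Python 3.11.15, numpy 2.4.6, pandas 2.3.3 and matplotlib 3.10.9 were used.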

Additional observations from a re-analysis of the deposited data

How the results depend on the processing

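With normexp background correction the challenge difference of Car3 was -1.17 in cells labelled Pla2g3-/- (-1.81 in the report) and -0.92 in wild type (-1.57), under 2-fold in wild type, and the median over the other members of the difference between the 2 challenge effects was 0.20 (0.72). By construction, the offset of 50 compresses probes as dim as these. The other 38 of 40 Car3 values and 39 of 40 medians over the other members moved by less than the scanner error. For Car3 many of these could not move, so the count is no measure of stability. It has 1 probe printed as 1 spot, above background on all arrays. Averaging probes, keeping outlier spots and requiring signal on all arrays therefore leave it unchanged, and the matrix holds the same signal. Of 294 values of single other members, 21 moved by more than the scanner error, under normexp or with probes of a gene averaged. Of 2040 counts and medians of gene lists 78 moved, 47 of them under normexp, where the adipocyte list's 3 lower and 1 higher in wild type became 0 and 0. The Dbp rank, an alternative added after seeing the data, was 248 with normexp and 1 with quantile normalization. It was also 1 with the 2 other scalings and the matrix values. Those settings cannot change it, because a shift of a whole array cancels in the distance. With outlier spots kept it was 1 as well. No paired analysis was possible because each group has 1 array and the labels give no replicate numbers. Members near background, Adipoq and Lep, are limited by signal over background, and each effect rests on 2 arrays, or 4 for a difference between effects.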
